A study of Mus musculus with 2 samples.

Results

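Thrombospondins, fibronectin and their matrix partners formed a group of 8 genes, Thbs1, Thbs2, Thbs4, Fn1, Itga5, Tnxb, Dpt and Mmp14, out of 628 genes in the deposited expression table. The genes were chosen by symbol with their measured FPKM in both libraries already known, so that their ratios are given as a description. All 8 were found in the table, which pairs mouse Entrez identifiers with a value for each library. FPKM counts sequenced fragments per kilobase of transcript, scaled to the mapped fragments of the library, and is thus a level per transcript length, so that levels of different genes can be set beside each other within a library.

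To compare brown adipose tissue between genotypes, 1 RNA-seq library was made from a 3bKO sample and 1 from a fl/fl control sample. Both samples came from C57BL/6 mice given a diet with 60% fat for 20 weeks. 3bKO is read here as a knockout of Dnmt3b, a DNA methyltransferase, which the labels do not spell out, and fl/fl as the floxed control. The labels give neither the Cre line that deletes the gene, nor sex, age or the number of mice in a library. The table was deposited under a name that pairs Myf5 with D3b without tying either to a genotype, so every direction below rests on the column headings. With 1 library per genotype there was no replicate check, and no p-value or error can be given. A ratio below is the 3bKO value divided by the fl/fl value and compares 2 libraries. The sources used here do not give library depth.

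The table is a selection. Its deposited name marks it as a filtered list of differing genes, and the smallest absolute log2 ratio in it was 0.50. A gene without a row has no value here and cannot be called changed or unchanged. Dnmt3b was not analysed here for this reason, so the genotype labels could not be checked on the deleted gene. Of the related enzymes, Dnmt3a had 6.20 FPKM in 3bKO and 3.82 FPKM in fl/fl. Among brown adipocyte markers, Ucp1 and Cidea were not analysed here either. The 6 of 19 with a value were all lower in 3bKO, 2 of them by more than 2-fold. In the whole table, 116 of 628 genes were lower in 3bKO, 28 of them by more than 2-fold. The lowest ratio of the 6 was that of Dio2, with 20.6 FPKM in 3bKO and 48.0 FPKM in fl/fl.

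Thrombospondins are secreted calcium-binding glycoproteins that modulate how cells attach to the matrix rather than building its scaffold. Fibronectin is assembled into fibrils on the cell surface through the integrin α5β1, and these fibrils guide the deposition of collagen and the binding of thrombospondin 1. Tenascin-X and dermatopontin bind collagen and its small proteoglycans and affect how fibrils are laid down, whereas MT1-MMP, the product of Mmp14, cuts fibrillar collagen at the cell surface. In adipose tissue this pericellular matrix surrounds every adipocyte and is remodeled when the fat cells enlarge.

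All 8 genes had a higher level in 3bKO than in fl/fl, and for 6 of them the ratio exceeded 2. Most genes in the selection shared this direction, 81.5% with a ratio above 1 and 47.1% with a ratio above 2. The count above 2 depended on the scale of the libraries. Scaled to the same total over the listed genes, 2 of the 8 genes (25%) and 29.9% of all genes had a ratio above 2, and scaled without the skeletal muscle list 3 of the 8 (37.5%) and 33.6% of all genes. Of all genes past 2-fold in either direction, 91.4% were higher in 3bKO as deposited, 66.4% with the first scaling and 77.9% with the second. With 1 FPKM added to both libraries, 3 of the 8 genes (37.5%) and 36.6% of all genes had a ratio above 2. No gene crossed a ratio of 1 under either scaling, as the smallest ratio above 1 in the table was 1.42. The median ratio of the 8 genes was 2.26, and that of all 628 genes was 1.94. Their summed level was 155 FPKM in 3bKO and 70.9 FPKM in fl/fl, a ratio of 2.19. Leaving out Dpt, the most abundant gene, the sums were 79.6 FPKM in 3bKO and 39.99 FPKM in fl/fl, a ratio of 1.99. The genes nearest the 2-fold limit were Thbs1 with a ratio of 2.08 on its upper side and Fn1 with 1.83 on its lower side.

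**Figure D1:**
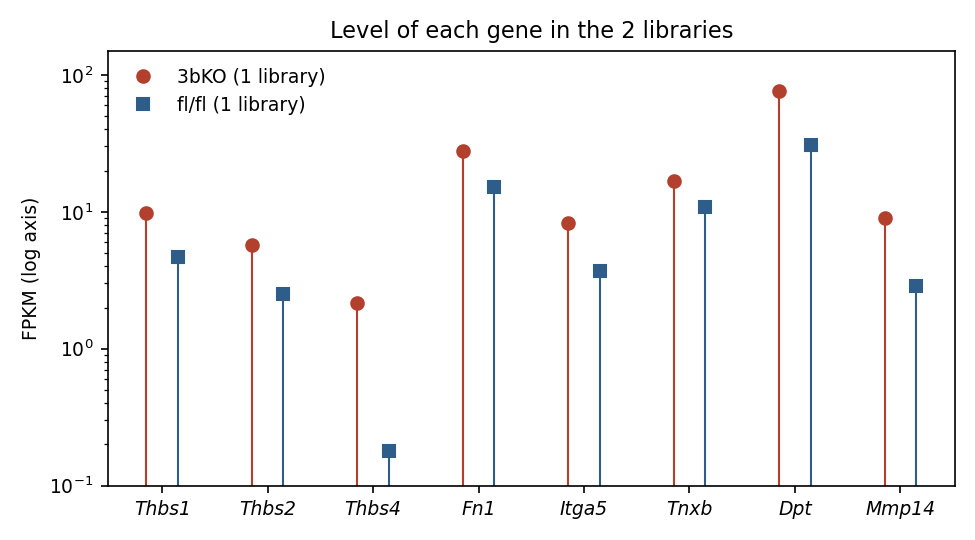
Level of each of the 8 genes in FPKM on a log axis, with a circle for the 3bKO library and a square for the fl/fl library; there are no replicates and thus no error bars. The circle lies above the square for every gene, with the widest gap for Thbs4 (2.16 FPKM in 3bKO, 0.18 FPKM in fl/fl) and the narrowest for Tnxb (16.9 FPKM in 3bKO, 10.9 FPKM in fl/fl).

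The order of the levels differed little between the libraries. In 3bKO the genes ran from Dpt through Fn1, Tnxb, Thbs1, Mmp14, Itga5 and Thbs2 to Thbs4. In fl/fl the order was the same except that Itga5 stood above Mmp14. Dpt made up 48.8% of the summed level of the 8 genes in 3bKO and 43.6% in fl/fl. Fn1 had 17.8% of the sum in 3bKO and 21.4% in fl/fl, and Tnxb 10.9% in 3bKO and 15.4% in fl/fl. Without replicates it is not known which neighbours in this order differ beyond their spread.

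Of the thrombospondins, Thbs1 (Entrez 21825, GRCm38.p6 chromosome 2, 118111876 to 118127133) encodes a trimeric protein that activates latent TGF-β and restrains angiogenesis through the receptors CD36 and CD47. It had 9.76 FPKM in 3bKO and 4.70 FPKM in fl/fl, a log2 ratio of 1.05. Thbs2 (Entrez 21826, chromosome 17, 14665500 to 14694262), its closest relative, also limits angiogenesis and is needed for regular collagen fibrils in mouse skin. It had 5.72 FPKM in 3bKO and 2.51 FPKM in fl/fl, a log2 ratio of 1.19. The level of Thbs1 over that of Thbs2 was 1.71 in 3bKO and 1.87 in fl/fl, and whether this differs beyond the spread between animals is not known.

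Thbs4 (Entrez 21828, chromosome 13, 92751586 to 92794818) encodes a pentameric thrombospondin that is abundant in tendon and in the connective tissue of muscle. It had 2.16 FPKM in 3bKO and 0.18 FPKM in fl/fl, a ratio of 12 and a log2 ratio of 3.58. This was the lowest level of the 8 genes in both libraries and the highest ratio. The values are deposited to 2 decimals, and rounding alone allows a ratio between 11.6 and 12.4. With 1 FPKM added to both libraries the ratio was 2.68, so that its size rests on the low fl/fl value. Thbs1 exceeded Thbs4 by 4.52 times in 3bKO and by 26.1 times in fl/fl. Adding the 3 thrombospondins gave 17.6 FPKM in 3bKO and 7.39 FPKM in fl/fl.

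A high ratio was common among genes of low level in this table, which lists only differing genes. Low genes are taken here by their fl/fl value, the divisor of the ratio. The counts that follow thus describe this selection and not low genes in general. Above the lowest listed value of 0.01 FPKM in both libraries, 103 genes were under 1 FPKM in fl/fl. Of these 103, 102 were higher in 3bKO, and the median ratio was 12.2, next to the 12 of Thbs4. For comparison, 512 of the 628 listed genes (81.5%) exceeded a ratio of 1, and the median over all 628 was 1.94. Of the 91 genes with a higher ratio than Thbs4, 28 were on a list of 36 skeletal muscle fibre genes. Of all 628 genes, 35 were on that list. At the lowest listed value of 0.01 FPKM in fl/fl stood 20 of the 91, and the size of their ratios rests on it. The genes next above Thbs4 in the order of ratios were Clcn1 (1.34 FPKM in 3bKO, 0.11 FPKM in fl/fl) and Xirp1 (1.63 FPKM in 3bKO, 0.13 FPKM in fl/fl). Next below were H19 (21.5 FPKM in 3bKO, 1.82 FPKM in fl/fl) and Klhl41 (16.2 FPKM in 3bKO, 1.44 FPKM in fl/fl). Clcn1 encodes the chloride channel of skeletal muscle, while Xirp1 and Klhl41 encode proteins of striated muscle and H19 is an imprinted noncoding RNA. Over the 35 fibre genes with a value, all higher in 3bKO, the summed level was 3127 FPKM in 3bKO (4.69 to 440.3 per gene) and 271 FPKM in fl/fl (0.01 to 73.2 per gene). Myl3 and Tnnt1 stood at the lowest listed value of 0.01 FPKM in fl/fl, and no fibre gene did in 3bKO. Of 12 tendon and muscle junction genes, Thbs4 among them, only Egr1 had a value besides, with 18.2 FPKM in 3bKO and 6.77 FPKM in fl/fl. Egr1 is expressed in many cell types and does not mark tendon alone. The tendon genes Scx, Tnmd and Mkx had no value. The part of muscle or tendon tissue in the Thbs4 value was not tested.

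**Figure D2:**
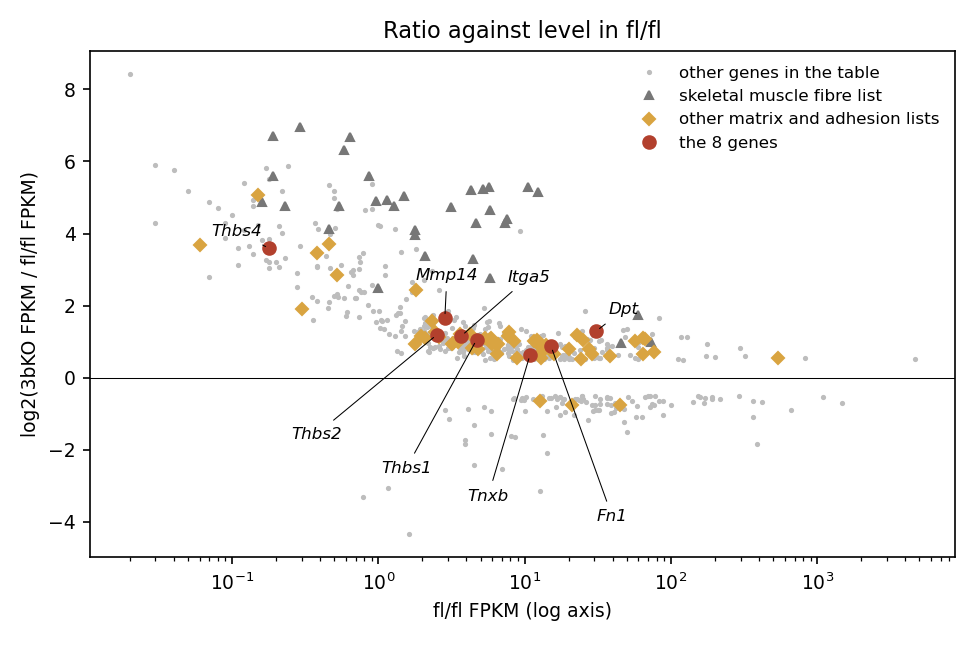
The log2 ratio of 3bKO over fl/fl against the fl/fl level in FPKM (log axis), 1 point per gene; genes at the lowest listed value of 0.01 FPKM in either library are left out. Thbs4 lies at 0.18 FPKM and a log2 ratio of 3.58, where high ratios are common in this selection of differing genes. The other 7 genes lie between 2.51 and 30.9 FPKM with log2 ratios of 0.64 to 1.66.

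The promoter windows of the genes were taken from RefSeq, from 250 bases before an annotated transcript start to 50 bases after it, and their CpG sites, where mammalian DNA methylation is mainly placed, were counted. Of the 8 genes, 6 had a window in the table, namely Thbs2, Thbs4, Itga5, Tnxb, Dpt and Mmp14. For 5 of them the window lies at the outer start of the gene, whereas the Tnxb window lies at a start 10082 bases inside the annotated gene. Thbs4 and Thbs2 are shown because they stood at the ends of the range of CpG sites within the same family, and Mmp14 because it had the next highest ratio after Thbs4. CpG sites are in capitals, and each sequence reads 5′ to 3′ on the strand of the gene in GRCm38.p6. Thbs4 is on the minus strand of chr13:92794769-92795068, Thbs2 on the minus strand of chr17:14694213-14694512 and Mmp14 on the plus strand of chr14:54431348-54431647.
Thbs4: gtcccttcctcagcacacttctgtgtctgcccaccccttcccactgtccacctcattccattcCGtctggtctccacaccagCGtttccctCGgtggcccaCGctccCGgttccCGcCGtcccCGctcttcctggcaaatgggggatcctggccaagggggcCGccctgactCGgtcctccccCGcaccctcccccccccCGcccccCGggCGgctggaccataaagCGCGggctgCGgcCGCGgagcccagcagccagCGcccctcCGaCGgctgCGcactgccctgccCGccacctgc
Thbs2: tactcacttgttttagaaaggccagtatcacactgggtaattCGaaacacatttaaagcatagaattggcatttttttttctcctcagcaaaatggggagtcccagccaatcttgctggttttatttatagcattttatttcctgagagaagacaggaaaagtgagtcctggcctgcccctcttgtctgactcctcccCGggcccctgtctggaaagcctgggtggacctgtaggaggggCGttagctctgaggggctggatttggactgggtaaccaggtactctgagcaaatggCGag
Mmp14: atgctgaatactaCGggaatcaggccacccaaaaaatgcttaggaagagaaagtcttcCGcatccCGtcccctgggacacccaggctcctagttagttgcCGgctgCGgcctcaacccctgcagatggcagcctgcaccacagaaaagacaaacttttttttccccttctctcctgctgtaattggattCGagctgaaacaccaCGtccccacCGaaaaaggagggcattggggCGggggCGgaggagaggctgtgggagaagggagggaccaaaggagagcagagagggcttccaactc

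The Thbs4 window held 24 CpG sites and the Thbs2 window 4, against a median of 13 over 21263 windows of 17492 protein-coding genes. Itga5 had 13 sites, Mmp14 10, Tnxb 5 and Dpt 4. All 6 windows belong to genes that were higher in 3bKO, with many and with few CpG sites among them. No windows of lower genes were compared, so CpG sites cannot be set against direction here. Methylation was not measured. Of short motifs searched on both strands, GGGCGG (the letters of the GC box) was found in Thbs4, Itga5 and Mmp14, and in 46.2% of all windows. TATAAA (the letters of the TATA box) was found in Thbs2, on the opposite strand 126 bases before the start, and in Dpt, 13 bases after the start, and in 12.6% of all windows. Neither place is the usual one of a TATA box, a short way before the start on the strand of the gene. CCAAT was found in Thbs2 and Mmp14, and in 38.2% of all windows. TGANTCA, the AP-1 motif, was found in the Tnxb window alone, 55 bases before that internal start, and in 6.99% of all windows. GGAATG, the TEAD motif, was found in Thbs4 alone, at 2 places that share a base, and in 13.6% of all windows. No motif was common to the 6 windows.

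Fn1 (Entrez 14268, chromosome 1, 71585473 to 71653280) encodes fibronectin, and RefSeq gives it 7 curated transcripts, which differ by alternative splicing and are summed in a gene-level value. It had 27.7 FPKM in 3bKO and 15.2 FPKM in fl/fl, a log2 ratio of 0.87. Its difference of 12.6 FPKM was the largest of the 8 genes after that of Dpt, although its ratio of 1.83 was below the 2-fold limit. Itga5 (Entrez 16402, chromosome 15, 103344286 to 103366791) encodes the α5 chain of the main fibronectin receptor. It had 8.28 FPKM in 3bKO and 3.70 FPKM in fl/fl, a log2 ratio of 1.16. The level of Fn1 over that of its receptor chain was 3.35 in 3bKO and 4.10 in fl/fl.

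The β1 chain with which α5 pairs, Itgb1, was not analysed here. Of the 25 other integrin chains on the list, 4 had a value, all higher in 3bKO and 1 of them by more than 2-fold. Beside this, 81.5% of the whole table was higher in 3bKO and 47.1% higher by more than 2-fold. Itgb2, the β chain of leukocyte integrins, had 11.6 FPKM in 3bKO and 5.37 FPKM in fl/fl, and Itgam, its α partner on myeloid cells, had 6.14 FPKM in 3bKO and 3.19 FPKM in fl/fl. Itgb5, a chain of a vitronectin receptor, had 35.0 FPKM in 3bKO and 24.4 FPKM in fl/fl. Itga7, a laminin receptor chain of muscle, had 12.9 FPKM in 3bKO and 8.89 FPKM in fl/fl. Itga5 had the highest ratio of the 5 chains, at 2.24 next to 2.15 for Itgb2.

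Inside the cell, integrins bind the actin cytoskeleton through adapter proteins. Of 33 such genes, 4 had a value and all were higher in 3bKO, 3 of them by more than 2-fold. The shares of the whole table were 81.5% higher and 47.1% higher by more than 2-fold. Itgb1bp2 (melusin), a muscle protein that binds the β1 chain, had 5.08 FPKM in 3bKO and 0.15 FPKM in fl/fl. Flnc, the filamin of muscle, had 6.02 FPKM in 3bKO and 0.46 FPKM in fl/fl, and Nexn, an actin-binding protein of striated muscle, had 9.85 FPKM in 3bKO and 1.81 FPKM in fl/fl. These 3 are known from muscle, whereas Tns3, a tensin of many cell types, had 3.42 FPKM in 3bKO and 1.78 FPKM in fl/fl.

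Of the matrix and adhesion lists, that of fibronectin and elastic fibre partners had the most members with a value, 9 of 21 other than Fn1. All 9 were higher in 3bKO and 5 had a ratio above 2, beside 81.5% and 47.1% of the whole table. Fbn1, which encodes fibrillin-1, a protein that assembles on fibronectin fibrils, had 8.42 FPKM in 3bKO and 3.6 FPKM in fl/fl. Emilin1, an elastic fibre glycoprotein, had 4.36 FPKM in 3bKO and 1.96 FPKM in fl/fl. The microfibril-associated proteins were low in fl/fl, with Mfap2 at 4.19 FPKM in 3bKO and 0.38 FPKM in fl/fl and Mfap4 at 3.74 FPKM in 3bKO and 0.52 FPKM in fl/fl.

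Tnxb (Entrez 81877, chromosome 17, 34660453 to 34719815) encodes tenascin-X, whose loss in humans causes a form of Ehlers-Danlos syndrome with lax skin and joints. It had 16.9 FPKM in 3bKO and 10.9 FPKM in fl/fl, a log2 ratio of 0.64. This was the lowest ratio of the 8 genes, and 71.3% of the genes in the table had a higher one. Its neighbours in the order of ratios were Ehd4 and Pltp, with log2 ratios of 0.64 each, above it and Adssl1 with 0.64 and Cd93 with 0.63 below it. The annotated end of Tnxb overlaps the pseudogene Cyp21a2-ps, and the counting is not stated to use strand, so reads in the overlap cannot be assigned to either gene. Of the other tenascins, Tnc, Tnr and Tnn were not analysed here.

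**Figure D3:**
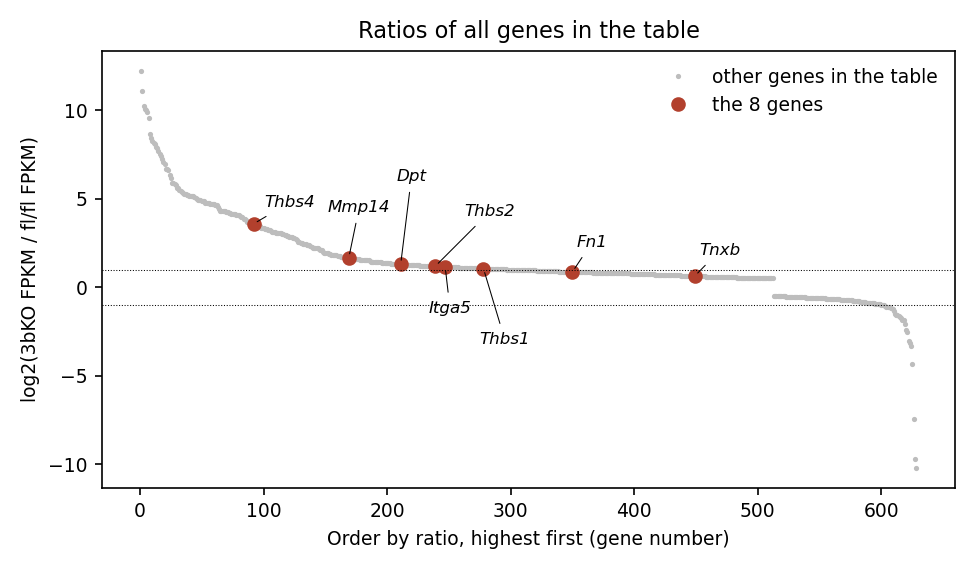
The log2 ratio of 3bKO over fl/fl for all 628 genes in the table, ordered from the highest to the lowest, with the 8 genes as large points and dotted lines at 2-fold. Thbs4 is at place 92, Mmp14 at 169, Dpt at 211, Thbs2 at 239, Itga5 at 247, Thbs1 at 278, Fn1 at 350 and Tnxb at 449, all within the 512 genes higher in 3bKO.

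Dpt (Entrez 56429, chromosome 1, 164796663 to 164824274) encodes dermatopontin, a small tyrosine-rich matrix protein that binds decorin and fibronectin and speeds the assembly of collagen fibrils. It had 75.7 FPKM in 3bKO and 30.9 FPKM in fl/fl, a log2 ratio of 1.29, and its difference of 44.9 FPKM was the largest of the 8 genes. The start of Dpt overlaps the noncoding RNA Gm32569. Dcn, the gene of its partner decorin, had 124 FPKM in 3bKO and 76.4 FPKM in fl/fl, so that Dpt over Dcn was 0.61 in 3bKO and 0.40 in fl/fl. Of the 12 small leucine-rich proteoglycans, to which decorin belongs, 5 had a value, all higher in 3bKO and 2 of them by more than 2-fold. These were Lum (lumican), with 25.3 FPKM in 3bKO and 12.2 FPKM in fl/fl, and Bgn (biglycan), with 115 FPKM in 3bKO and 57.0 FPKM in fl/fl. Of the fibrillar and related collagens that these proteins bind, 7 of 13 had a value, all higher in 3bKO and 5 with a ratio above 2. Col3a1 had 138 FPKM in 3bKO and 64.1 FPKM in fl/fl. Both lists stand beside a whole table with 81.5% of the genes higher and 47.1% above 2-fold.

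Mmp14 (Entrez 17387, chromosome 14, 54431598 to 54442456) encodes MT1-MMP, which mice need in order to remodel the collagen around growing white adipocytes. It had 9.02 FPKM in 3bKO and 2.85 FPKM in fl/fl, a ratio of 3.16 and a log2 ratio of 1.66. This was the highest ratio of the 7 genes above 1 FPKM in both libraries. MT1-MMP activates the secreted gelatinase MMP2 with the help of the inhibitor TIMP2, and all 3 genes were higher in 3bKO. Mmp2 had 18.7 FPKM in 3bKO and 7.79 FPKM in fl/fl, and Timp2 had 34.7 FPKM in 3bKO and 20.1 FPKM in fl/fl. The level of Timp2 over that of Mmp14 was 3.84 in 3bKO and 7.06 in fl/fl, and that of Mmp2 over Mmp14 was 2.07 in 3bKO and 2.73 in fl/fl. Cd44, a hyaluronan receptor that MT1-MMP cleaves, had 5.88 FPKM in 3bKO and 2.46 FPKM in fl/fl.

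The protease counts stand beside 81.5% of the whole table higher in 3bKO and 47.1% higher by more than 2-fold. Of the 19 other metalloproteinases on the list, 3 had a value, all higher in 3bKO and 2 with a ratio above 2. Besides Mmp2 these were Mmp28, with 9.82 FPKM in 3bKO and 4.22 FPKM in fl/fl, and Mmp12, the elastase of macrophages, with 11.5 FPKM in 3bKO and 6.03 FPKM in fl/fl. Of 20 ADAMTS genes, proteases that carry thrombospondin type 1 repeats, 4 were higher in 3bKO, 1 of them by more than 2-fold, and 1 was lower. The higher one was Adamts15 at 1.13 FPKM in 3bKO and 0.30 FPKM in fl/fl, and the lower one was Adamts9 at 8.10 FPKM in 3bKO and 12.8 FPKM in fl/fl. Sdc4 (syndecan-4), a proteoglycan that acts with α5β1 in adhesion to fibronectin and also binds thrombospondin 1, was lower in 3bKO, with 26.7 FPKM in 3bKO and 44.8 FPKM in fl/fl. It was the only thrombospondin receptor of 10 on the list with a value, as Cd36 and Cd47 were not analysed here.

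Over the 15 lists of matrix and adhesion genes together, without the 8 genes, 54 of 246 genes had a value. Of these, 51 were higher and 3 lower in 3bKO, with 26 higher by more than 2-fold and 0 lower by more than 2-fold. The share higher by more than 2-fold was 48.1%, beside 47.1% of the whole table, and the share higher at any ratio was 94.4%, beside 81.5%. The first pair of shares moved apart with the scale. Scaled to the same total over the listed genes, 8 of the 54 (14.8%) were higher and 3 lower by more than 2-fold, beside 29.9% higher in the whole table, and scaled without the muscle list 8 (14.8%) were higher and 2 lower, beside 33.6% higher. The median ratio was 1.97, beside 1.94 for all genes. Of 27 basement membrane and type VI collagen genes, 6 had a value, all higher in 3bKO and 3 with a ratio above 2, and Col18a1, the source of endostatin, had 12.8 FPKM in 3bKO and 5.93 FPKM in fl/fl. Of 15 collagen cross-linking and processing genes, 3 were higher in 3bKO and 1 lower. The higher ones included Pcolce, an enhancer of procollagen processing, with 138 FPKM in 3bKO and 66.4 FPKM in fl/fl, and the lower one was P4ha1, a subunit of collagen prolyl hydroxylase, with 12.3 FPKM in 3bKO and 20.9 FPKM in fl/fl. The lists of TGF-β genes, of other thrombospondins and of other tenascins had no member with a value. Of 19 other matricellular genes, 4 had a value, all higher in 3bKO and 2 with a ratio above 2. Ccn2 (connective tissue growth factor) had 6.90 FPKM in 3bKO and 2.34 FPKM in fl/fl, and Sparc, a collagen chaperone of the matrix, had 783 FPKM in 3bKO and 539 FPKM in fl/fl.

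**Figure D4:**
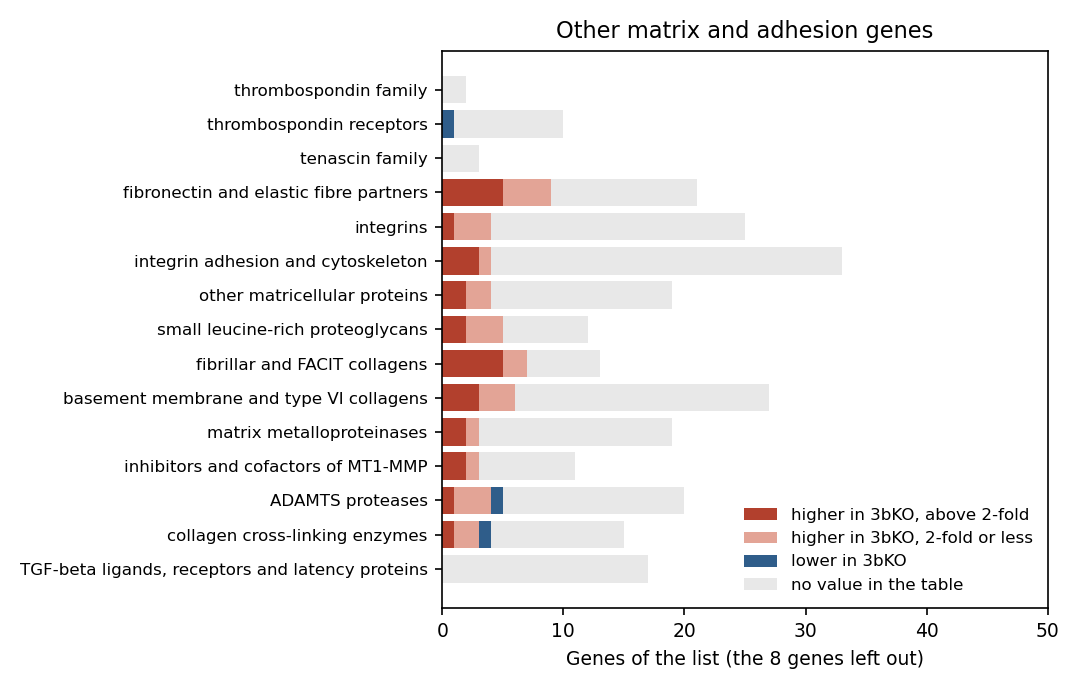
Number of genes in each list of matrix and adhesion genes, the 8 genes left out, split into genes with a ratio of 3bKO over fl/fl above 2, a ratio above 1 up to 2, a ratio below 1, and no value in the table. Of 54 genes with a value, 51 were higher and the 3 lower ones were Sdc4, Adamts9 and P4ha1.

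Markers of stromal cells and macrophages shared the direction of most of the table, in which 81.5% of the genes were higher in 3bKO and the median ratio was 1.94. In a bulk sample, a larger number of such cells and more RNA per cell cannot be told apart. Of 17 fibroblast and stromal genes, 12 had a value and all were higher in 3bKO, with a summed level of 1008 FPKM in 3bKO (5.84 to 531 per gene) and 550 FPKM in fl/fl (3.57 to 298 per gene), and a median ratio of 1.98. Of 27 macrophage genes, 17 had a value and all were higher in 3bKO, with a summed level of 769 FPKM in 3bKO (4.74 to 259 per gene) and 358 FPKM in fl/fl (2.32 to 118 per gene), and a median ratio of 2.05. The stromal genes Fbn1, Col1a1, Col1a2, Col3a1, Lum and Dcn and the macrophage gene Itgam are also on the matrix and adhesion lists. These lists are thus not separate readings. Gsn had the highest level of the stromal list, with 531 FPKM in 3bKO and 298 FPKM in fl/fl. The defining stromal receptor Pdgfra had 5.84 FPKM in 3bKO and 3.57 FPKM in fl/fl. No stromal or macrophage gene stood at the lowest listed value in either library. In the brown adipocyte list the summed level of the 6 genes with a value was 972 FPKM in 3bKO (17.5 to 747 per gene) and 1481 FPKM in fl/fl (32.5 to 1093 per gene). Of 15 white adipocyte genes, 4 were higher and 1 lower in 3bKO, with a summed level of 378 FPKM in 3bKO and 495 FPKM in fl/fl, while their median ratio was 2.51. The sum went against the count through Cfd (adipsin), with 108 FPKM in 3bKO and 387 FPKM in fl/fl, beside Lep (leptin) with 130 FPKM in 3bKO and 50.4 FPKM in fl/fl. Of 12 endothelial genes, Vwf alone had a value, with 5.86 FPKM in 3bKO and 3.87 FPKM in fl/fl, and the smooth muscle, mesothelial and nerve lists had none. Of the platelet and red blood cell list, Hba-a2 and Alas2 had a value, and both were lower in 3bKO. Platelet genes, of interest since platelets store thrombospondin 1, were not analysed here. The part of these cells in the levels of the 8 genes was not tested.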

How the data were processed

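Total RNA from brown adipose tissue was enriched for polyadenylated mRNA, fragmented and sequenced by the submitters. The authors deposited FPKM per gene for both libraries, and the submitters' processing notes list RSEM, an abundance estimator, beside mm10 as the genome build. The aligner, the filter that selected the genes, the depth and the use of strand are not given in the sources used here. Entrez identifiers were paired with symbols from RefSeq of GRCm38.p6, of which mm10 is the same primary assembly, and 627 of 628 matched. Ratios of 3bKO over fl/fl were taken on FPKM without a pseudocount. With 1 library per genotype no test was run, and counts use a limit of 2-fold, in either direction. The code of the ratio and count steps was run on fl/fl values, raised to at least 1 FPKM and multiplied by set factors. That run checks the arithmetic alone and not genes of lower level. The 8 genes and the 27 lists were chosen with earlier results of these data known. Named genes are the 8 genes, at most 4 per list with the largest absolute log2 ratios above the lowest listed value of 0.01 FPKM, and 2 neighbours on each side of the highest and the lowest ratio. Dnmt3b, Ucp1, Scx, Pdgfra, Myl3 and Tnnt1 and other list members outside that rule were named after their values, or their absence, were seen. Fold limits, pseudocounts, a minimum level and rescaling were tried as alternatives. Promoter windows came from RefSeq of GRCm38.p6. Python 3.11.15, NumPy 2.4.6, pandas 2.3.3 and Matplotlib 3.10.9 were used.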

Additional observations from a re-analysis of the deposited data

How the results depend on the processing

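Against 6 of the 8 genes higher by more than 2-fold, 2 (25%) passed at 3-fold and 1 (12.5%) at 4-fold. Of all genes, 175 (27.9%) passed at 3-fold and 148 (23.6%) at 4-fold. At 1.5-fold, 8 of the 8 genes passed (100%), beside 468 of all genes (74.5%) and 47 of the other matrix and adhesion genes (87%). Of those matrix genes, 7 (13%) passed at 3-fold and 6 (11.1%) at 4-fold. These changes follow from the limits. With a pseudocount of 1 FPKM, 3 of the 8 genes, 15 of the other matrix genes (27.8%) and 230 of all genes (36.6%) passed, and the Thbs4 ratio was 2.68. With at least 1 FPKM in both libraries, Thbs4 had no value and 5 of the 7 genes left (71.4%) passed. Under that setting 174 of 499 genes (34.9%) and 20 of 48 other matrix genes (41.7%) passed. Scaling both libraries to the same total over the listed genes multiplied 3bKO values by 0.74 (a log2 shift of -0.43), which left 2 of the 8 genes, 188 of all genes and 8 of the other matrix genes past 2-fold. Scaling without the muscle list multiplied them by 0.82 (a log2 shift of -0.29) and left 3 of the 8 genes, 211 of all genes and 8 of the other matrix genes. Scd1, named after its values were seen, made up 23.0% of the total over all listed genes in 3bKO and 21.7% in fl/fl, and the totals cover selected genes only. Under both scalings the ratios of the 8 genes lay between 1.15 (Tnxb) and 9.83 (Thbs4). A pseudocount or a minimum level cannot turn a ratio, and a scaling moves all genes by 1 factor, so the settings are no test of direction. Taking every listed gene at any ratio, chosen after seeing the data, gave 512 genes, 8 of the 8 and 51 other matrix genes. Variation between animals could not be assessed from these libraries.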
